A study of Homo sapiens with 43 samples.

Results

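The washout change of hydrocortisone at 10 µM is the amount by which the effect of the hormone moved between the end of a 3-day treatment and a second harvest, on day 6, after 3 days without it. For each gene it was calculated on the log2 scale as the day 6 effect (hydrocortisone minus the mean of the 4 vehicle groups of day 6) minus the day 3 effect (hydrocortisone minus the mean of the 4 vehicle groups of day 3). A negative washout change therefore means a lower effect on day 6, and a gene raised on day 3 that went back to the vehicle level has one as large as its day 3 effect with the sign turned round. The comparison used 22 of the 43 libraries of the series. These were 3 libraries of hydrocortisone 10 µM on day 6 (replicates 2, 3 and 4), 4 vehicle libraries on day 6 (1 each for the high and low doses of hydrocortisone and of dexamethasone), 3 libraries of hydrocortisone 10 µM on day 3 (replicates 2, 3 and 4) and 12 vehicle libraries on day 3 (3 for each of the same 4 vehicle groups). All were bulk RNA-seq libraries of HMC3, an immortalised human line described as microglial, and the vehicle was ethanol. Each flask was collected and reseeded on its own between the 2 harvests, so a day 6 library descends from a flask of day 3. The labels describe the samples as replicate flasks of 1 line, so p-values measure the spread between flasks of this line. In bulk libraries, fewer cells of a type and less RNA per cell cannot be told apart.

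Hydrocortisone is the natural glucocorticoid cortisol. It binds the glucocorticoid receptor, a transcription factor held in the cytoplasm by the HSP90 chaperones with the immunophilins FKBP4 and FKBP5. The receptor with its ligand moves to the nucleus, binds DNA at response elements near genes such as FKBP5, TSC22D3 and PER1, whose RNA rises, and restrains other genes in part through the AP-1 and NF-kB transcription factors. In microglia, the macrophages of the brain, glucocorticoids are known for dampening inflammatory genes.

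Library depth ranged between 11165431 and 24426643 counts over the 22 libraries. Ribosomal RNA genes took 16.6% to 37.3% of the counts in the 6 hydrocortisone libraries, and 13.9% to 91.4% in the vehicle libraries, of which 3 were above 75%. One of these 3, the vehicle of high-dose dexamethasone on day 6 (replicate 4), is 1 of the 4 day 6 vehicle libraries, at 77.1%. Of 26 microglia and macrophage markers, 9 were among the counted genes and 3 had a median above 1 CPM (counts scaled to library size, here without ribosomal RNA). CSF1R and TREM2, which define the lineage, had medians of 0.255 and 0.223 CPM. Of 16 fibroblast and pericyte markers, 14 were among the counted genes, 10 had a median above 1 CPM, and COL1A1 had 1665 CPM. The summed microglia markers were 104 to 116 CPM in hydrocortisone libraries of day 6, 116 to 140 CPM in vehicle libraries of day 6, 89.5 to 101 CPM in hydrocortisone libraries of day 3 and 99.8 to 122 CPM in vehicle libraries of day 3. The summed fibroblast markers were 5020 to 5284 CPM, 4299 to 5008 CPM, 4984 to 5374 CPM and 4380 to 5436 CPM in the same 4 groups. Among the fibroblast markers VIM had a washout change of 0.47 and PDGFRB of -0.35, and among the astrocyte markers SLC1A3 had -1.09, and their part in the results was not tested.

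The washout change passed the threshold (a Benjamini-Hochberg adjusted p under 0.05 in the quasi-likelihood test of edgeR) in 1172 of 16816 genes tested, 6.97%. It was positive in 725 of them (4.31%) and negative in 447 (2.66%), and it reached 2-fold in 131 and 84. The effect on day 6, after washout, passed in 150 genes, 0.892%, with 71 higher (0.422%) and 79 lower (0.47%) in hydrocortisone than in vehicle libraries. The effect on day 3 passed in 4066 genes, 24.2%, with 1973 higher (11.7%) and 2093 lower (12.4%). The washout change went against the day 3 effect: 688 of the 725 positive genes had been called lower on day 3, and 413 of the 447 negative genes had been called higher on day 3. The washout change contains the day 3 effect, so this opposition follows from its construction. Between the vehicle groups themselves, day 6 against day 3, 85 genes passed, 0.505%, with 37 higher (0.22%) and 48 lower (0.285%). Between the hydrocortisone libraries alone, day 6 against day 3 without the vehicles taken off, 2564 genes passed, 15.2%, with 1489 higher (8.85%) and 1075 lower (6.39%). Without hydrocortisone day 3 replicate 4 the washout change passed in 709 genes, the day 3 effect in 2676 and the uncorrected change in 1705. Without hydrocortisone day 6 replicate 3 the day 6 effect passed in 34 genes, without replicate 4 in 68, and without the vehicle of high-dose dexamethasone on day 6 in 77.

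A part of the day 3 effect was still measured on day 6. Among the 334 genes raised at least 2-fold on day 3, the median log2 effect was 0.41 on day 6 and 1.36 on day 3, so that the day 6 median was 30.4% of the day 3 median. The sign was the same on both days in 287 of them (85.9%), and 25 (7.49%) passed the test on day 6. Among the 264 genes lowered at least 2-fold on day 3, the median log2 effect was -0.35 on day 6 and -1.42 on day 3, or 24.2%, with the same sign in 224 (84.8%) and a call on day 6 in 29 (11%). Genes chosen by a large day 3 effect have that effect overstated, so the share was also taken over genes chosen from other libraries, by the day 3 contrast of dexamethasone 1 µM with untreated medium. Over those, the day 6 median was 31.2% of the day 3 median for 393 raised genes (0.32 against 1.02) and 27.0% for 331 lowered genes (-0.30 against -1.13). Over all 4066 genes called on day 3, 124 were called the same way on day 6, 55 of them raised and 69 lowered. That count was 33 without hydrocortisone day 6 replicate 3, 62 without replicate 4 and 72 without the vehicle of high-dose dexamethasone on day 6.

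**Figure D1:**
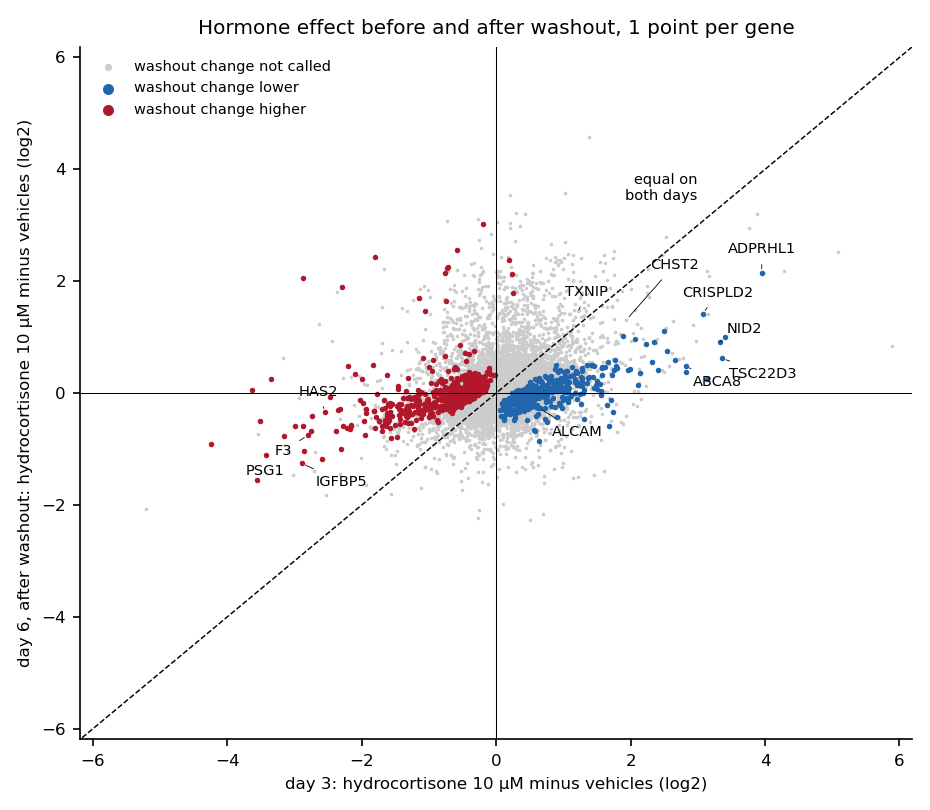
Effect of hydrocortisone 10 µM on day 6 (vertical axis, log2) against its effect on day 3 (horizontal axis, log2), each against the mean of the vehicle groups of its day; points are the 16816 genes tested, red where the washout change was called higher (725), blue where it was called lower (447) and grey elsewhere. Points on the dashed line have an equal effect on both days; TSC22D3 (0.62 on day 6, 3.36 on day 3) and F3 (-0.76 on day 6, -2.80 on day 3) lie between that line and no effect, and TXNIP (1.49 on day 6, 1.23 on day 3) lies near it.

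Of 38 tested targets of the glucocorticoid receptor, 12 had a washout change called lower and 1 called higher, with a list median of -0.29, against 0.02 over all genes. On day 6 4 of the 38 were called higher in hydrocortisone libraries, and on day 3 21 were called higher and 2 lower. Counts of this and the following lists stand beside the shares over all genes. These were 4.31% higher and 2.66% lower in the washout change, 0.422% and 0.47% on day 6, and 11.7% and 12.4% on day 3. TSC22D3, which encodes the anti-inflammatory protein GILZ, had 3.55, 5.19 and 4.10 CPM in hydrocortisone libraries of day 6, against 2.55, 2.55, 3.08 and 2.99 CPM in vehicle libraries of day 6. On day 3 it had 32.4, 43.2 and 38.6 CPM in hydrocortisone libraries, against a lowest value of 2.63, a median of 3.86 and a highest of 4.45 CPM in vehicle libraries. The hydrocortisone libraries of day 6 were all just above the vehicles of their day, while those of day 3 stood far above theirs with no overlap. The TSC22D3 day 6 effect of 0.62 did not pass (edgeR adjusted p = 0.2425). The washout change of TSC22D3 was -2.74 ± 0.301 (SE; edgeR adjusted p = 2.53e-07), and taken by replicate number it was -2.77, -2.64 and -2.82. FKBP5, the immunophilin that lowers the receptor's affinity for hormone, had 41.4, 34.5 and 46.1 CPM in hydrocortisone libraries of day 6, against 32.9, 28.5, 30.4 and 27.5 CPM in vehicle libraries of day 6. It had 71.6, 89.9 and 83.3 CPM in hydrocortisone libraries of day 3, against 27.6, 33.2 and 40.4 CPM (lowest, median, highest) in vehicle libraries of day 3. The groups did not overlap on either day, and the FKBP5 washout change was -0.83 ± 0.157 (SE; edgeR adjusted p = 0.00045), while its day 6 effect of 0.45 missed the threshold (edgeR adjusted p = 0.0593).

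ABCA8, a lipid transporter, was among the genes with the smallest adjusted p. It stood at 19.1, 20.1 and 16.7 CPM in hydrocortisone libraries of day 6, against 13.9, 12.5, 13.6 and 13.4 CPM in vehicle libraries of day 6. On day 3 it stood at 81.9, 82.7 and 86.1 CPM in hydrocortisone libraries, against 10.1, 11.8 and 13.8 CPM (lowest, median, highest) in vehicle libraries. Neither day showed an overlap, the washout change was -2.34 ± 0.142 (SE; edgeR adjusted p = 8.7e-16), and the effect of 0.48 on day 6 was called (edgeR adjusted p = 0.0122). The ABCA8 day 6 effect was 0.42 without replicate 3 of the day 6 hormone libraries and 0.46 without replicate 2, and neither passed. CRISPLD2, a secreted glycoprotein that binds endotoxin, kept more: its log2 effect was 1.41 on day 6 and 3.07 on day 3. The vehicle libraries themselves had less CRISPLD2 on day 6 than on day 3 (-0.54, edgeR adjusted p = 0.0262). PER1, a clock repressor induced by glucocorticoids, had a washout change of -1.55 ± 0.260 (SE), and its day 6 values of 6.66 to 7.88 CPM in hydrocortisone libraries lay partly within the 3.84 to 7.26 CPM of vehicle libraries. KLF9, a transcription factor downstream of the receptor, had -1.15 ± 0.204 (SE), and the inhibitor of NF-kB encoded by NFKBIA had -0.93. CEBPB, a stress and inflammation transcription factor, was the target called higher, at 0.68. The CEBPB washout change was 0.52 without hydrocortisone day 6 replicate 3 and did not pass (edgeR adjusted p = 0.111). DUSP1, a phosphatase that switches off MAP kinases and a common receptor target, had a washout change of -0.45 with a standard error of 0.410 and an adjusted p of 0.61 in edgeR, and its libraries overlapped between hormone and vehicle on both days.

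**Figure D2:**
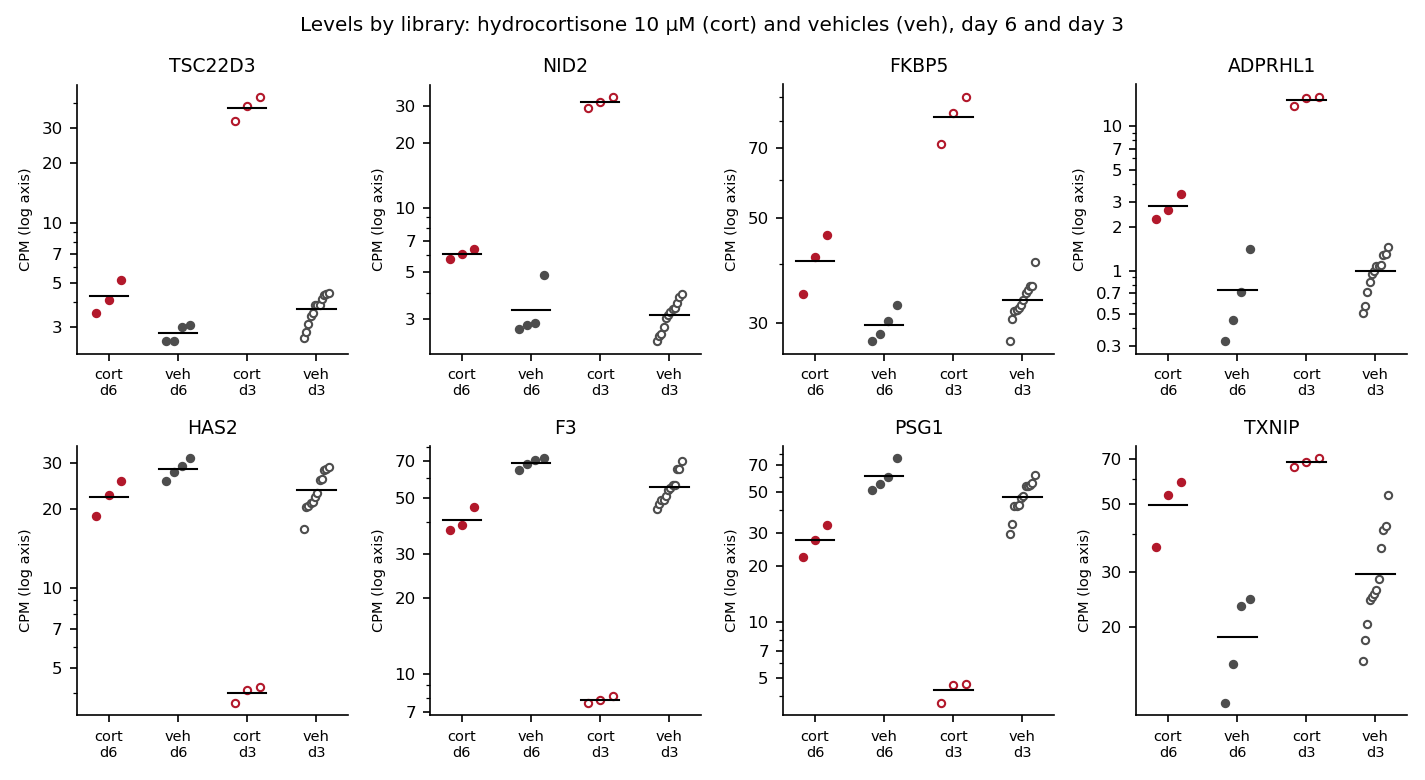
Level of 8 genes in each library (CPM, log axis); the groups run from left to right as hydrocortisone 10 µM day 6, vehicles day 6, hydrocortisone 10 µM day 3 and vehicles day 3, filled points are day 6, open points are day 3 and the line is the group's mean. TSC22D3, NID2, FKBP5 and ADPRHL1 are above all vehicles in the day 3 hormone libraries and nearer to them, though still above all of them, on day 6 (ADPRHL1 by 2.15 on the log2 scale), HAS2, F3 and PSG1 are far below them on day 3, and TXNIP stays above the day 6 vehicles.

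The metallothioneins are small metal-binding proteins whose genes respond to glucocorticoids. Of 4 tested, 3 had a washout change called lower (median over the list -0.63) and 3 were called higher on day 3. MT2A had -0.56 and MT1E -1.04, and both had fallen in the vehicle libraries as well (-0.39 and -0.48, called), so that the hydrocortisone libraries of day 6 held less of them than the vehicles of day 3. MT1X had -0.70 (edgeR adjusted p = 0.0421), and its call was lost in 14 of 31 alternative settings, so the count of 3 rests on a value near the threshold. With flask lineage as a block the MT1X washout change was -0.61 (edgeR adjusted p = 0.181), and without hydrocortisone day 6 replicate 2 it was -0.53 (edgeR adjusted p = 0.191). These genes are near-identical in parts of their sequence, and reads could be split between them.

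Of 14 tested genes for corticosteroid receptors, their chaperones and steroid enzymes, 6 had a washout change called higher and 2 called lower (median 0.26). NR3C1, the glucocorticoid receptor, had 70.3, 67.6 and 70.9 CPM in hydrocortisone libraries of day 6, against 80.6, 78.6, 70.6 and 67.0 CPM in vehicle libraries of day 6. It had 60.6, 59.2 and 67.7 CPM in hydrocortisone libraries of day 3, against 71.0, 78.6 and 85.1 CPM (lowest, median, highest) in vehicle libraries of day 3. The hormone libraries lay below all vehicles on day 3 and within their range on day 6, and the washout change of 0.23 ± 0.107 (SE) missed the threshold (edgeR adjusted p = 0.217). The 6 genes called higher were chaperones or cochaperones of the receptor complex, namely HSP90AA1 (0.86), FKBP4 (0.64), HSPA8 (0.46), HSP90AB1 (0.45), STIP1 (0.37) and DNAJA1 (0.31). Without hydrocortisone day 6 replicate 4 the HSPA8 washout change was 0.37 and the DNAJA1 washout change 0.25, and without the vehicle of high-dose dexamethasone on day 6 they were 0.38 and 0.25, and none of these passed. FKBP4 had 81.2, 85.8 and 91.6 CPM in hydrocortisone libraries of day 6, within the 77.7 to 96.4 CPM of vehicle libraries of day 6. It had 56.4, 54.3 and 54.2 CPM in hydrocortisone libraries of day 3, below the 75.1 to 102 CPM of vehicle libraries of day 3. The 2 genes called lower were FKBP5 and ABCB1, an efflux pump that carries glucocorticoids among other substrates, at -1.10. Among 15 heat shock genes 8 were called higher and 1 lower, which was CRYAB (-1.17), a small heat shock protein. This list shares members such as HSP90AB1 with the list of receptors and chaperones, so the counts are not independent. The mitochondrial chaperonin HSPD1 had 0.67 ± 0.0809 (SE) and HSPH1, an exchange factor for HSP70, had 0.76 ± 0.126 (SE). HSPA1A and HSPA1B, a near-identical pair whose reads could be split, were called higher on day 6 (0.46 and 0.53). The HSPA1A day 6 effect was 0.37 and the HSPA1B day 6 effect 0.40 without hydrocortisone day 6 replicate 3, and neither passed.

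Genes of the extracellular matrix moved in both directions. Of 33 tested, 9 had a washout change called lower and 3 called higher, with a list median of 0.01. NID2, the basement membrane protein nidogen 2, had 5.72, 6.08 and 6.42 CPM in hydrocortisone libraries of day 6, against 2.70, 2.81, 4.86 and 2.89 CPM in vehicle libraries of day 6. On day 3 it had 33.1, 29.4 and 31.3 CPM in hydrocortisone libraries, against 2.36, 3.19 and 3.95 CPM (lowest, median, highest) in vehicle libraries. Hormone and vehicle libraries were apart on both days, with the washout change at -2.41 ± 0.17 (SE; edgeR adjusted p = 4.55e-14) and the day 6 effect still called at 0.92. The fibrillar and microfibril genes COL5A1 (-0.79), COL12A1 (-0.83), FBN1 (-1.11) and FBN2 (-0.82) and the elastic fibre gene EFEMP1 (-1.02) were also called lower. COL5A1 had 75.2, 78.2 and 68.8 CPM in hydrocortisone libraries of day 6, all above the 42.8 to 66.5 CPM of vehicle libraries of day 6, and its vehicles had fallen by 0.44 between the days. The COL5A1 day 6 effect of 0.39 was 0.26 without the vehicle of low-dose hydrocortisone and did not pass (edgeR adjusted p = 0.112). FAT4, a giant cadherin, had a washout change of -1.77 and an effect of 0.55 on day 6. The FAT4 day 6 effect was 0.51 without hydrocortisone day 6 replicate 3 or without replicate 4 and did not pass.

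HAS2, the synthase of hyaluronan, went the opposite way to NID2. It had 25.4, 18.8 and 22.6 CPM in hydrocortisone libraries of day 6, against 27.7, 31.2, 29.1 and 25.4 CPM in vehicle libraries of day 6. It had 4.22, 3.68 and 4.11 CPM in hydrocortisone libraries of day 3, against 16.8, 22.6 and 28.9 CPM (lowest, median, highest) in vehicle libraries of day 3. On day 6 its highest hormone library lay just below the lowest vehicle library, both at 25.4 CPM after rounding, and on day 3 the groups were far apart. The washout change of HAS2 was 2.20 ± 0.164 (SE; edgeR adjusted p = 3.6e-13), and its day 6 effect of -0.35 did not pass. TGFBI, a matrix protein induced by TGF-beta, had a washout change of 1.42 ± 0.119 (SE) and day 6 values of 84.9 to 102 CPM in hydrocortisone libraries, against 96.4 to 123 CPM in vehicle libraries. Its vehicles stood at 138 to 165 CPM on day 3, a called fall of 0.56 on the log2 scale by day 6. Of 33 genes that respond to TGF-beta, activin, YAP or SRF, 4 were called higher and 5 lower (median -0.01). CNN1, a smooth muscle calponin, was called higher at 0.72, and LTBP1 and LTBP2, which store latent TGF-beta, were called lower at -1.47 and -0.71.

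The pregnancy-specific glycoproteins are a family of secreted immunoglobulin-like proteins known from the placenta. Of 10 tested, 8 had a washout change called higher, with a list median of 1.69, 10 were called lower on day 3 and 3 were called lower on day 6 (PSG1, PSG3 and PSG9). PSG1 had 33.3, 22.2 and 27.4 CPM in hydrocortisone libraries of day 6, against 55.0, 75.7, 60.2 and 51.2 CPM in vehicle libraries of day 6. On day 3 it had 4.58, 4.65 and 3.67 CPM in hydrocortisone libraries, against 29.6, 46.9 and 61.2 CPM (lowest, median, highest) in vehicle libraries. The hormone libraries were below every vehicle on both days, the washout change was 2.31 ± 0.197 (SE; edgeR adjusted p = 7.39e-10), and the day 6 effect was -1.11. Without hydrocortisone day 6 replicate 3 the PSG3 day 6 effect was -1.08 and the PSG9 day 6 effect -0.73, and neither passed. PSG2 (2.04), PSG11 (2.07) and PSG5 (1.06) had their day 6 effect nearer to 0, at -0.28, -0.68 and -0.35. PSG6 had a washout change of 2.40 ± 0.393 (SE) at a level of 1.39 to 2.91 CPM on day 6 in hydrocortisone libraries. The members lie next to each other and share much of their sequence, so reads could be split between them and they are not independent. KRTAP2-3, a keratin-associated protein of another family of near copies, had a washout change of 2.33, and RGS4, which turns off G protein signals, had 2.30 at 2.97 to 3.36 CPM on day 6 in hydrocortisone libraries.

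Genes of coagulation and of the plasminogen system moved in both directions. F3, tissue factor, the starter of the clotting cascade, had 46.1, 37.1 and 38.9 CPM in hydrocortisone libraries of day 6, against 68.1, 70.8, 72.0 and 64.4 CPM in vehicle libraries of day 6. It had 7.65, 8.11 and 7.86 CPM in hydrocortisone libraries of day 3, against 45.4, 54.4 and 70.2 CPM (lowest, median, highest) in vehicle libraries of day 3. Hormone libraries stayed below all vehicles on both days, with a washout change of 2.05 ± 0.185 (SE; edgeR adjusted p = 2.2e-09) and a day 6 effect of -0.76 (edgeR adjusted p = 0.0032). The F3 day 6 effect was -0.69 without hydrocortisone day 6 replicate 3 and did not pass (edgeR adjusted p = 0.0616). Of 11 genes of the list 4 were called higher and 1 lower (median 0.33). Besides F3, PLAUR, the urokinase receptor, had 0.98, the protease inhibitor SERPINE2 had 1.27 and TFPI, the inhibitor of the tissue factor pathway, had 0.54. The TFPI washout change was 0.46 without hydrocortisone day 6 replicate 2 and did not pass (edgeR adjusted p = 0.0557).

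Several of the genes that were lowered and came back carry the AP-1 motif TGANTCA in their promoters. The motif was picked after the values were seen, so the shares below are a description and no test. MT2A, which was raised on day 3, carries a match too, 104 bases before the start. FOSL1 is given here as a subunit of AP-1 and not for a match. IL11, an interleukin-6 family cytokine, had 21.1, 22.1 and 22.1 CPM in hydrocortisone libraries of day 6, against 21.6, 22.5, 29.3 and 34.1 CPM in vehicle libraries of day 6. On day 3 it had 6.93, 7.71 and 7.60 CPM in hydrocortisone libraries, against 19.5, 29.9 and 37.6 CPM (lowest, median, highest) in vehicle libraries. The hormone libraries reached the lower vehicles on day 6 and were below all of them on day 3, and the washout change was 1.66 ± 0.285 (SE; edgeR adjusted p = 0.000245). FOSL1, a subunit of AP-1, had a washout change of 1.23 ± 0.129 (SE), with 35.7 to 38.6 CPM in hydrocortisone libraries and 37.9 to 46.1 CPM in vehicle libraries of day 6. The motif, read on both strands over 250 bases before and 50 bases after the start of the gene in RefSeq on GRCh38.p14, was present in 12 of 87 promoters (13.8%) of genes lowered at least 2-fold on day 3 with a washout change called higher. It was present in 2 of 72 promoters (2.78%) of genes raised at least 2-fold on day 3 with a washout change called lower, in 488 of 10993 promoters (4.44%) of genes tested and in 2707 of 35116 promoters (7.71%) of the whole table. The sets of genes count 1 promoter per gene, and the whole table counts every promoter listed, so that share is in another unit. A match is a description of the sequence and does not show that a protein binds there. The promoters of F3, with 2 matches that begin 223 and 210 bases before the start, and of IL11, with 1 match at 96 bases before it, are given as the 250 bases before the start with the motif in capitals.
F3 promoter, chr1:94541760-94542009, minus strand: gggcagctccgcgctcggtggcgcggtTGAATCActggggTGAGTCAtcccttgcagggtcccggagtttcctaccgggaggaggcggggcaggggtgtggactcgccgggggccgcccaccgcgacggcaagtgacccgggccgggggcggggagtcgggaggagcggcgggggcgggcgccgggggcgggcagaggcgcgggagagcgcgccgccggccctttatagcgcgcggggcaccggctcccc
IL11 promoter, chr19:55370464-55370713, minus strand: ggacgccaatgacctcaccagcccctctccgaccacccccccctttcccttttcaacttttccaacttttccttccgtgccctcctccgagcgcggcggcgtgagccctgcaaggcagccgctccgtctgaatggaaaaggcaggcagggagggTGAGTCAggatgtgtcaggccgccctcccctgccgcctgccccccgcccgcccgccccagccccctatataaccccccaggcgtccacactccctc

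Growth factor genes were divided. Of 23 tested, 5 had a washout change called higher and 4 called lower (median 0.03). IGFBP5, which binds insulin-like growth factors, had 12.7, 9.54 and 11.7 CPM in hydrocortisone libraries of day 6, against 25.2, 23.8, 29 and 30.6 CPM in vehicle libraries of day 6. It had 2.77, 2.25 and 2.61 CPM in hydrocortisone libraries of day 3, against 14.4, 18.9 and 23.6 CPM (lowest, median, highest) in vehicle libraries of day 3. The hormone libraries were below the vehicles on both days, with a washout change of 1.64 ± 0.230 (SE) and a day 6 effect of -1.26 (edgeR adjusted p = 6.07e-05). FST, the activin antagonist follistatin, had a washout change of 1.41 ± 0.254 (SE), and its day 6 values of 12.8 to 14.4 CPM in hydrocortisone libraries were below the 26.1 to 34.2 CPM of vehicle libraries. FST had risen in the vehicles by 0.63 between the days (edgeR adjusted p = 0.0253). INHBA, the subunit of activin A that follistatin binds, was chosen after its values were seen, and had a washout change of 0.69 with an effect of -0.79 on day 6. IGFBP7, a secreted binding protein raised on day 3, was called lower at -0.91, with an effect of 0.50 on day 6. The IGFBP7 day 6 effect was 0.37 without hydrocortisone day 6 replicate 3, and it did not pass when any of 6 of the 7 day 6 libraries was left out.

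Of 21 interferon-stimulated genes, 4 had a washout change called lower (median -0.31), and 10 were called higher on day 3. Over all genes these shares were 2.66% and 11.7%. IFIT2, an antiviral protein that binds RNA, had 2.60, 2.04 and 1.46 CPM in hydrocortisone libraries of day 6, within the 1.22 to 2.91 CPM of vehicle libraries of day 6, and a washout change of -1.53 ± 0.301 (SE). It had 6.14, 5.77 and 5.17 CPM in hydrocortisone libraries of day 3, above the highest vehicle of day 3 at 3.05 CPM. With flask lineage as a block the STAT2 washout change, for a subunit of the interferon-activated transcription factor, was -0.33 and did not pass (edgeR adjusted p = 0.0709), against -0.36 without it. Of 21 p53 targets, 8 were called lower (median -0.39), and 13 were called higher on day 3. MDM2, the ubiquitin ligase that limits p53, had 87.9, 91.5 and 95.3 CPM in hydrocortisone libraries of day 6, against 91.0, 83.6, 85.1 and 86.3 CPM in vehicle libraries of day 6. It had 169, 204 and 210 CPM in hydrocortisone libraries of day 3, against 77.6, 89.8 and 116 CPM (lowest, median, highest) in vehicle libraries of day 3. The groups overlapped on day 6 and were apart on day 3, with a washout change of -0.98 ± 0.109 (SE; edgeR adjusted p = 1.01e-08). The antiproliferative gene BTG2 (-1.08), TP53INP1, an inducer of cell death and autophagy (-0.83), and the cell cycle inhibitor CDKN1A (-0.70) were among the others.

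Among 22 cytokines and NF-kB targets 2 were called higher and 2 lower (median 0.10). The 2 lower ones were NFKBIA and CSF1, the growth factor of macrophages, at -0.97. The CSF1 washout change was -0.82 without hydrocortisone day 6 replicate 3 and did not pass (edgeR adjusted p = 0.114). IL11 and IL1B were the higher ones, and IL1B is given no fold because its libraries held between 0 and 0.534 CPM. Of 19 genes of MAP kinase feedback, 4 were called higher (median 0.19) and 7 were called lower on day 3. They were DUSP4 (1.14) and DUSP14 (0.39), which encode phosphatases, and the ETS factors ETV4 (0.90) and ETV5 (0.58), which are induced by the pathway. Without hydrocortisone day 3 replicate 4 the DUSP14 washout change was 0.38 and did not pass (edgeR adjusted p = 0.0553). The proto-oncogene MYC had a washout change of 0.49 ± 0.118 (SE), with 74.2 to 88.7 CPM in hydrocortisone libraries and 72.2 to 93.3 CPM in vehicle libraries of day 6.

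Lists of the cell cycle and of cholesterol synthesis had shares of called genes near that over all genes. Of 44 S-phase genes 2 were called higher (CDCA7 and UHRF1), of 51 genes of G2 and mitosis 2 were called higher (RANGAP1 and TUBB4B) and 1 lower (TOP2A), and of 25 genes of cholesterol synthesis 2 were called lower (HMGCS1, an early enzyme of the pathway, among them). These shares of 4.55%, 5.88% and 8% stand beside 6.97% over all genes. Calls of the 6 genes named here were lost when 1 of several libraries was left out: without hydrocortisone day 3 replicate 4 the CDCA7 washout change was 0.32, the UHRF1 washout change 0.24, the RANGAP1 washout change 0.36, the TUBB4B washout change 0.28, the TOP2A washout change -0.24 and the HMGCS1 washout change -0.53. Of 18 oxidative stress genes 3 (16.7%) were called higher, the iron storage gene FTL (0.59), the peroxidase gene PRDX1 (0.54) and TXNRD1, thioredoxin reductase (0.34). Among 39 replication-dependent histone genes 3 were called higher, a share of 7.69% near the 6.97% over all genes, and 38 had a washout change above 0 (median 0.38). The RNAs of these genes lack a poly(A) tail. Without hydrocortisone day 3 replicate 4 the H1-4 washout change was 0.28, the H3C1 washout change 0.61 and the H2BC15 washout change 0.37, and none passed, against 0.41, 0.69 and 0.47 with it. Of 27 genes of hypoxia and glycolysis 2 were called higher, also near that share at 7.41%. They were HK2 (0.52), the first enzyme of glycolysis, and the vasodilator gene ADM (0.64). Without hydrocortisone day 3 replicate 4 the ADM washout change was 0.57 and did not pass.

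**Figure D3:**
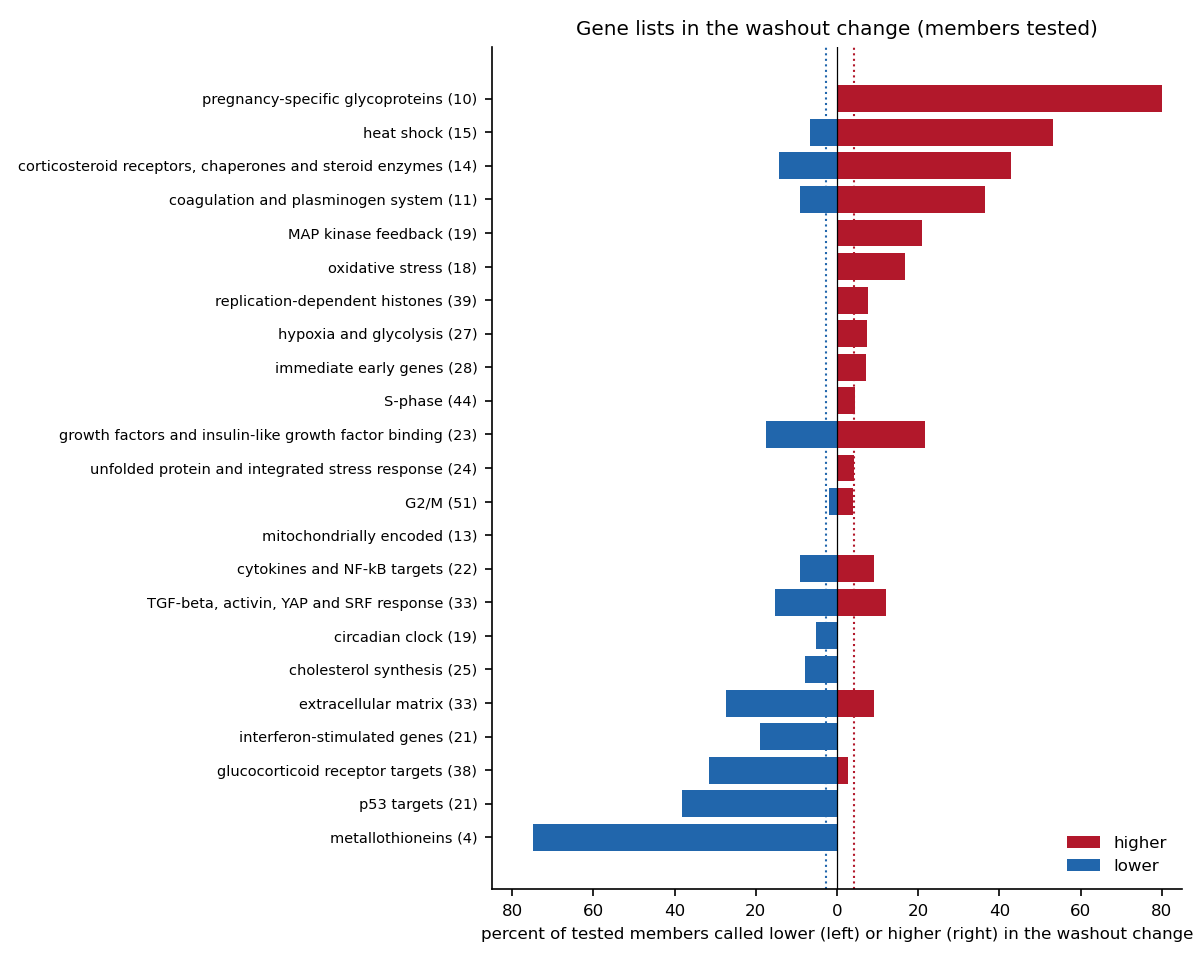
Percentage of the tested members of each gene list whose washout change was called higher (red, to the right) or lower (blue, to the left); dotted lines give 4.31% and 2.66%, the shares over all genes tested. The pregnancy-specific glycoproteins (8 of 10) and heat shock genes (8 of 15) reach farthest to the right, and the metallothioneins (3 of 4), p53 targets (8 of 21) and glucocorticoid receptor targets (12 of 38) farthest to the left. Lists can share members, as the heat shock list and that of receptors and chaperones share HSP90AB1.

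What was still different on day 6 included genes that kept much of their day 3 effect. ADPRHL1, a protein of heart muscle related to ADP-ribosyl hydrolases, had 2.65, 3.43 and 2.29 CPM in hydrocortisone libraries of day 6, against 0.713, 0.456, 0.324 and 1.42 CPM in vehicle libraries of day 6. It had 15.7, 14 and 16.1 CPM in hydrocortisone libraries of day 3, against 0.506, 1.03 and 1.47 CPM (lowest, median, highest) in vehicle libraries of day 3. Hormone and vehicle libraries did not overlap on either day, and the effect was 2.15 on day 6 (edgeR adjusted p = 1.21e-05) and 3.95 on day 3, with a washout change of -1.80 ± 0.349 (SE). TXNIP, which binds thioredoxin and slows glucose uptake, had 36.1, 53.5 and 59.1 CPM in hydrocortisone libraries of day 6, against 23.4, 24.5, 11.3 and 15.1 CPM in vehicle libraries of day 6. It had 68.2, 66.1 and 70.3 CPM in hydrocortisone libraries of day 3, against 15.5, 25.9 and 53.6 CPM (lowest, median, highest) in vehicle libraries of day 3. The groups were apart on both days, its effect was 1.49 on day 6 and 1.23 on day 3, and the washout change of 0.26 had a standard error of 0.371 and did not pass (edgeR adjusted p = 0.78). The TXNIP day 6 effect did not pass without hydrocortisone day 6 replicate 3 (1.43, edgeR adjusted p = 0.0533), without replicate 4 (1.34) or without the vehicle of high-dose dexamethasone on day 6 (1.27). TXNIP was the 1 gene among 69 named genes with a promoter in the table that held the glucocorticoid response element searched for, 175 bases before the start. The element was present in 1 of 72 promoters (1.39%) of genes raised at least 2-fold on day 3 with a washout change called lower and in 2 of 87 (2.3%) of genes lowered at least 2-fold on day 3 with a washout change called higher. It was present in 23 of 10993 promoters (0.209%) of genes tested, at 1 promoter per gene, and in 137 of 35116 promoters (0.39%) of the whole table, at every promoter listed. These counts of 1 and 2 are too few to set the classes apart. The 250 bases before the start of TXNIP, from RefSeq on GRCh38.p14, are given with the element in capitals.
TXNIP promoter, chr1:145996580-145996829, minus strand: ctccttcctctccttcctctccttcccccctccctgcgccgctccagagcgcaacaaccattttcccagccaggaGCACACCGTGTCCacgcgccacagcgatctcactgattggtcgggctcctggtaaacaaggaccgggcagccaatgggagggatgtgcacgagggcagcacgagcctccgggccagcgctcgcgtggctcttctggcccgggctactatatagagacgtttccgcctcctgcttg

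CHST2, a sulphotransferase that modifies sugar chains, had 4.87, 6.08 and 3.40 CPM in hydrocortisone libraries of day 6, against 1.78, 1.90, 1.62 and 2.52 CPM in vehicle libraries of day 6. Its effect was 1.31 on day 6 and 1.94 on day 3, and the washout change of -0.63 did not pass (edgeR adjusted p = 0.173). Without the libraries above 75% ribosomal RNA the CHST2 washout change was -0.69 and passed (edgeR adjusted p = 0.0471). The effect was called on both days with opposite signs in 3 genes. COL11A1, a minor fibrillar collagen, had an effect of -0.45 on day 6 and 0.27 on day 3. The cell adhesion gene ALCAM had -0.26 on day 6 and 0.63 on day 3, and the Wnt inhibitor DKK1 had 0.33 on day 6 and -0.46 on day 3. Each of these 3 day 6 calls was lost when hydrocortisone day 6 replicate 3 was left out: the COL11A1 day 6 effect was then -0.37, the ALCAM day 6 effect -0.26 and the DKK1 day 6 effect 0.31. Their washout changes, -0.72, -0.88 and 0.79, passed without it.

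Of the 12750 genes with no call on day 3, 23 were called on day 6, 15 higher and 8 lower. SLC7A11, the cystine transporter, had 14.6, 8.93 and 8.71 CPM in hydrocortisone libraries of day 6, against 18.9, 18.7, 23.5 and 23.7 CPM in vehicle libraries of day 6. Its hormone libraries of day 6 were below all vehicles of that day, and on day 3 the groups overlapped. The effect was -0.97 on day 6 and -0.27 on day 3, and the washout change of -0.71 had an adjusted p of 0.0846 in edgeR. With flask lineage as a block the SLC7A11 washout change was -0.78 and passed (edgeR adjusted p = 0.0084), while the SLC7A11 day 6 effect did not pass without hydrocortisone day 6 replicate 3 (-0.86) or replicate 4 (-0.84). ABCG2, a drug efflux pump, had 1.48, 2.07 and 2.12 CPM in hydrocortisone libraries of day 6, against 2.34, 2.09, 0 and 0.996 CPM in vehicle libraries of day 6. The library at 0 was the vehicle of high-dose dexamethasone on day 6, and without it the ABCG2 washout change was -0.08, against 1.90 with it.

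The calls above rest on the 4 vehicle groups of each day. With the vehicle of high-dose hydrocortisone as the only reference, 1 library on day 6, the washout change passed in 264 genes, the day 6 effect in 3 and the day 3 effect in 2200. Among the genes given here by name, the washout change kept its direction and did not pass in that setting for PSG6, RGS4, IFIT2, HSP90AB1, FKBP4, MT2A, MT1X, STAT2, CDKN1A, ETV5, IGFBP7, CDCA7, UHRF1, TOP2A, RANGAP1, TUBB4B, HMGCS1, CEBPB, HSPD1, HSPH1, PRDX1, TXNRD1, ADM, H3C1, PDGFRB, SLC1A3, KLF9, FST, HTRA1, HSP90AA1, STIP1, DNAJA1, HSPA8, CSF1, BTG2, DUSP14, LTBP1, LTBP2, INHBA, TFPI and PSG9. The direction turned round for ABCG2 (ABCG2 washout change -0.29). Of the day 6 effects given above, those of NID2 and INHBA passed in it.

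**Figure D4:**
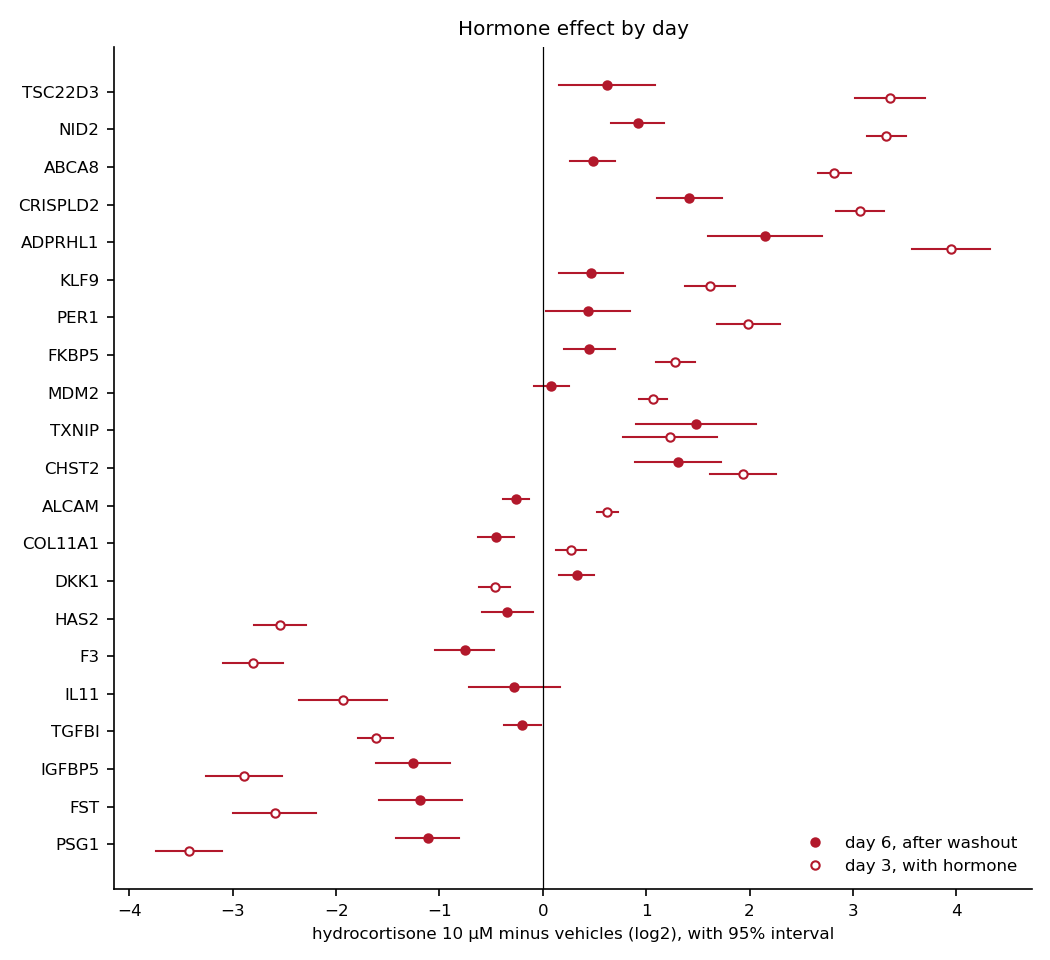
Effect of hydrocortisone 10 µM on day 6 (filled) and day 3 (open) with 95% intervals for 21 genes, as log2 against the vehicles of the same day. Genes raised on day 3 such as NID2 (0.92 on day 6, 3.32 on day 3) and genes lowered on day 3 such as PSG1 (-1.11 on day 6, -3.42 on day 3) lie nearer to 0 on day 6, and TXNIP does not.

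The washout change was set beside those of the other hormone treatments, dexamethasone at 1 and 0.01 µM and hydrocortisone at 0.01 µM, in groups of 3 libraries per day. Dexamethasone is a synthetic glucocorticoid that differs from hydrocortisone by a fluorine atom, a methyl group and an added double bond in the steroid rings. The doses of hydrocortisone 10 µM and of dexamethasone differ, so differences are those between treatments and not between molecules. Dexamethasone 1 µM had 284 called washout changes (1.69%, with 188 higher, 1.12%, and 96 lower, 0.571%). Dexamethasone 0.01 µM had 1100 (6.54%, with 674 higher, 4.01%, and 426 lower, 2.53%), and hydrocortisone 0.01 µM had 1 (0.00595%), which was higher, with 0.0% lower. These counts are not tests of a difference. In the direct test, in which the vehicles cancel, hydrocortisone 10 µM differed from dexamethasone 1 µM in 12 genes (0.0714%), 3 with a more positive washout change (0.0178%) and 9 with a more negative one (0.0535%). It differed from dexamethasone 0.01 µM in 2 genes (0.0119%), both more negative, with 0.0% more positive, and 930 genes had an unadjusted p below 0.05. It differed from hydrocortisone 0.01 µM in 1098 genes (6.53%), 648 more positive (3.85%) and 450 more negative (2.68%). The 95% interval of the difference had a median half-width of 0.345 on the log2 scale against each of the 3 treatments, over 11763 genes with a mean of at least 1 log2 CPM.

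CRISPLD2 and PSG1 had the largest called differences from dexamethasone 1 µM in each direction. CRISPLD2 averaged 16.9 ± 2.15 CPM on day 6 and 77.3 ± 3.05 CPM on day 3 in hydrocortisone 10 µM libraries, against 49.5 ± 2.14 CPM on day 6 and 79.3 ± 13.4 CPM on day 3 in dexamethasone 1 µM libraries (SD, n = 3 each). Its washout change was -1.66 for hydrocortisone 10 µM and -0.14 for dexamethasone 1 µM, a difference of -1.51 ± 0.234 (SE; edgeR adjusted p = 0.00079). PSG1 averaged 27.6 ± 5.54 CPM on day 6 and 4.30 ± 0.548 CPM on day 3 in hydrocortisone 10 µM libraries, against 12.9 ± 1.07 CPM on day 6 and 5.61 ± 0.103 CPM on day 3 in dexamethasone 1 µM libraries (SD, n = 3 each). Its washout change was 2.31 for hydrocortisone 10 µM and 0.82 for dexamethasone 1 µM, a difference of 1.48 ± 0.222 (SE; edgeR adjusted p = 0.00066). FAT4 (-1.77 for hydrocortisone 10 µM and -0.61 for dexamethasone 1 µM), APOL2, a cytoplasmic apolipoprotein L (-1.18 and -0.45), and NPR3, the clearance receptor of natriuretic peptides (-1.34 and -0.84), were called as well. Without hydrocortisone day 3 replicate 4 the NPR3 washout change against dexamethasone 1 uM was -0.47, against -0.50 with it, and did not pass (edgeR adjusted p = 0.0662). SLC7A2, a transporter of cationic amino acids (-0.64 for hydrocortisone 10 µM and 0.14 for dexamethasone 1 µM), and MDM2 (-0.98 and -0.18) also had a more negative change, as did ABCA8 and FBN1. The differences of ABCA8 (-0.83) and FBN1 (-0.95) did not hold throughout. Without dexamethasone 1 µM day 6 replicate 3 the ABCA8 washout change against dexamethasone 1 uM was -0.74 (edgeR adjusted p = 0.107), without hydrocortisone day 6 replicate 4 it was -0.76, and without hydrocortisone or dexamethasone day 3 replicate 4 it was -0.81. Without hydrocortisone day 6 replicate 2 the FBN1 washout change against dexamethasone 1 uM was -0.88 (edgeR adjusted p = 0.0542). Besides PSG1 the more positive genes were IL7R, the interleukin-7 receptor (1.02 for hydrocortisone 10 µM and 0.22 for dexamethasone 1 µM), and WDR18, a ribosome assembly factor (0.61 and -0.30).

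The 2 genes that differed from dexamethasone 0.01 µM were MDM2 and IGFBP3. MDM2 had a washout change of -0.98 in hydrocortisone 10 µM and -0.21 in dexamethasone 0.01 µM, a difference of -0.78 ± 0.126 (SE; edgeR adjusted p = 0.00196). On day 3 MDM2 averaged 123 CPM in dexamethasone 0.01 µM, 194 CPM in hydrocortisone 10 µM and 93.5 CPM in vehicle libraries, so the day 3 levels differed as well. IGFBP3, a carrier of insulin-like growth factors, had 0.60 in hydrocortisone 10 µM and 1.48 in dexamethasone 0.01 µM, a difference of -0.88 ± 0.109 (SE; edgeR adjusted p = 5.64e-06). For CRISPLD2 the 95% interval of the difference from dexamethasone 0.01 µM ran between -0.32 and 0.62, and for NID2 between -0.16 and 0.63. Against hydrocortisone 0.01 µM, TSC22D3 (-2.74 for 10 µM and 0.12 for 0.01 µM), NID2 (-2.41 and 0.00) and PSG1 (2.31 and 0.04) were among the largest differences. On day 3 the hydrocortisone 0.01 µM libraries averaged 3.89 CPM for TSC22D3, 3.33 CPM for NID2 and 45.7 CPM for PSG1. The vehicle libraries of day 3 averaged 3.71, 3.14 and 46.8 CPM. For these genes a washout change near 0 at 0.01 µM therefore goes with a day 3 level near the vehicles, and not with a kept effect. The carboxypeptidase gene CPA4 (1.76 for 10 µM and -0.50 for 0.01 µM) and the secreted protease gene HTRA1 (-1.38 and 1.25) were others, HTRA1 at 1.25 to 1.43 CPM in hydrocortisone 10 µM libraries of day 6. The count of called genes against hydrocortisone 0.01 µM was 677 without its day 6 replicate 3 and 692 without its day 3 replicate 2.

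**Figure D5:**
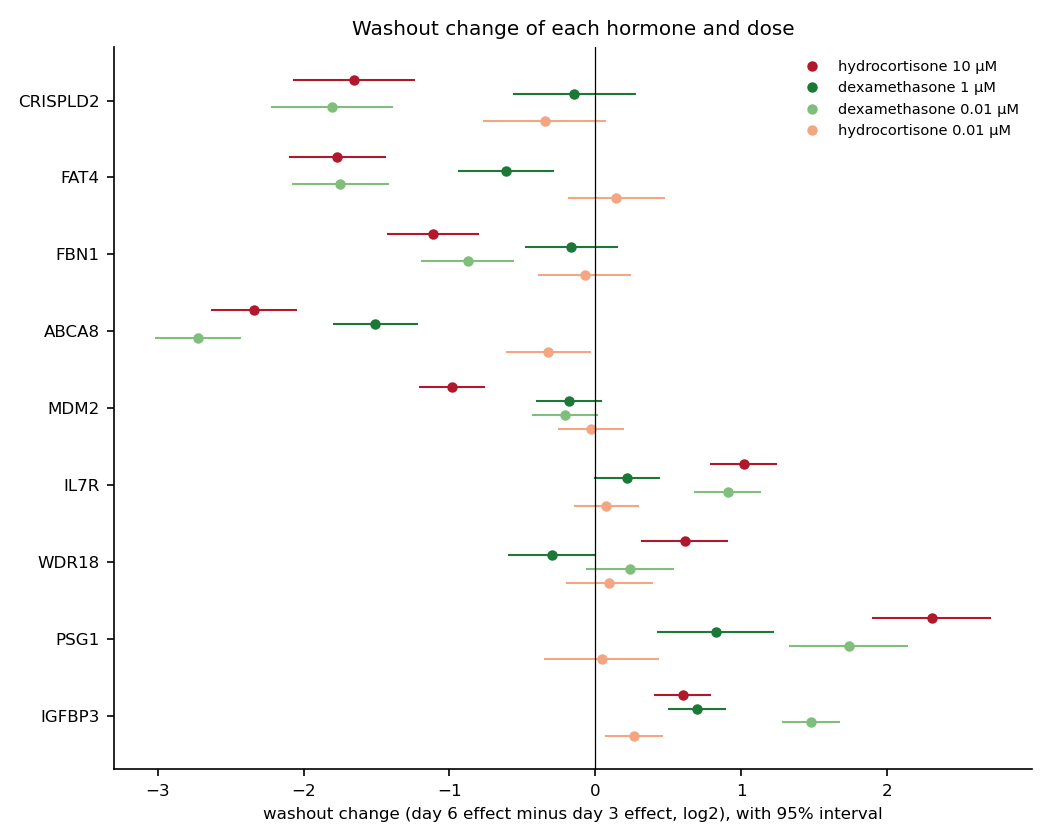
Washout change (log2, points) with 95% intervals for 9 genes in hydrocortisone 10 µM, dexamethasone 1 µM, dexamethasone 0.01 µM and hydrocortisone 0.01 µM. CRISPLD2 lies at -1.66 for hydrocortisone 10 µM and at -0.14 for dexamethasone 1 µM, MDM2 lies near 0 in all treatments but hydrocortisone 10 µM, and hydrocortisone 0.01 µM lies nearest to 0 for most of the genes.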

How the data were processed

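Stranded total RNA libraries of HMC3 flasks were sequenced with paired ends, per the labels' protocols. The deposited table holds raw counts per gene. Per the submitters' processing notes FastQC, STAR, featureCounts (Subread) and GRCh38 were used, with versions and the strand setting of the counting not given in the sources used here, so overlapping antisense genes cannot be told apart. Of 20052 genes, 19978 took their symbol from the name table and 70 from GENCODE annotation.

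Counts were tested with edgeR 4.0.16 in R 4.3.3 (TMM, quasi-likelihood, filterByExpr with a minimum count of 10 and minimum total of 15, 16816 genes, 17 groups, 26 residual degrees of freedom). All 43 libraries were in 1 fit, and p-values were adjusted over all genes tested (threshold 0.05). CPM values use the TMM library sizes with ribosomal RNA included, except for the cell type markers. An adjusted p in the text is edgeR's unless DESeq2 is named. In simulated counts for the washout change, on 16816 genes, 95 of 100 genes changed 2-fold and 100 of 100 changed 4-fold were recovered, with 14 false calls. The changed genes were drawn from those with a mean above 2 CPM, and each gene's spread was set by the trend with its level. The simulation does not show the recovery of genes at lower levels or with a spread above that trend.

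The members and gene lists were chosen with earlier results of these data known. Genes named by rule were the 10 largest called washout changes in each direction without overlap between the hormone libraries of both days, up to 3 called genes of every list by smallest p, FKBP5, TSC22D3, PER1, KLF9, DUSP1 and NR3C1, the 6 largest day 6 effects of each class, and the 4 largest called differences from each other treatment in each direction, at a mean of at least 1 log2 CPM (91 genes). Further list members, INHBA, APOL2, SLC7A2 and NPR3, the AP-1 motif and the gene choice by dexamethasone were picked after their values were seen. Of the 91 genes, 69 had a RefSeq promoter.

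Replicate numbers come from the labels. Deviations from the group means were correlated between days over 11763 genes. For hydrocortisone 10 µM the same number gave 0.234, 0.175 and 0.190, and different numbers gave -0.233 to 0.068. For hydrocortisone 0.01 µM these were 0.138, 0.176 and 0.069, and -0.142 to -0.022. Dexamethasone 1 µM had -0.202, -0.083 and -0.032 for the same number, and -0.104 to 0.176 for different numbers. Dexamethasone 0.01 µM had 0.161, -0.050 and 0.201, and -0.285 to 0.331. As different numbers reached 0.331, values of this size do not establish that the numbers pair flasks in any treatment. The block by flask lineage takes them as pairs. No 2 libraries of a group agreed within sampling noise. For genes above a minimum count in the pair, the squared deviation from a split in proportion to library size was divided by its counting variance. The median of this over genes was 1.71 to 4.39 times the median that sampling noise alone gives. Alternatives were DESeq2 1.42.0, RLE size factors, no filter, ribosomal RNA removed, libraries above 75% ribosomal RNA left out, the 22 libraries alone, the own vehicle alone, blocks by flask lineage or number, and each library left out. Precision of single genes is limited by 1 library in each day 6 vehicle group. A few genes that passed a test are not reported here by name.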

Additional observations from a re-analysis of the deposited data

Results flagged for a closer look

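NID2 had 4.86 CPM in the day 6 vehicle of high-dose dexamethasone (replicate 4), and the other 3 day 6 vehicle libraries lay between 2.70 and 2.89 CPM. That library is the day 6 library with 77.1% ribosomal RNA, and the NID2 washout change was called without it as well. Such a gap was looked for in 91 genes and found in 1, and chance gives one in about 1 in 20 groups.

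Some washout changes of hydrocortisone 10 µM differed from those of another treatment in a direct test of the difference (log2, edgeR, 3 libraries for each group and day). From dexamethasone 1 µM these were PSG1 (1.48), WDR18 (0.91), IL7R (0.80), CRISPLD2 (-1.51), FAT4 (-1.16), FBN1 (-0.95) and ABCA8 (-0.83). From dexamethasone 0.01 µM they were MDM2 (-0.78) and IGFBP3 (-0.88).

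From hydrocortisone 0.01 µM the largest were DCDC2 (2.44), PSG6 (2.39), PSG1 (2.26), CPA4 (2.26), TSC22D3 (-2.86), HTRA1 (-2.64), NID2 (-2.41) and PER1 (-2.12). DCDC2 rose in the vehicles by 1.69 between the days. The doses differ between the treatments.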

How the results depend on the processing

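The washout change passed in 1172 genes, and in 1191 with RLE size factors, 1085 without a filter, 1485 with ribosomal RNA removed, 1366 with the 22 libraries alone, 1312 without the libraries above 75% ribosomal RNA, 1386 in DESeq2, 1174 with flask lineage as a replicate block (845 of the 1172 among them) and 1221 with replicate number as a block. Against the own vehicle alone it passed in 264 genes (148 higher, 116 lower), the day 3 effect in 2200, the day 6 effect in 3, and 3 genes were called the same way on both days. Over the libraries left out 1 at a time, the washout change passed in 709 to 1278 genes (427 to 783 higher, 282 to 495 lower), the day 3 effect in 2676 to 4177, the day 6 effect in 34 to 174, the uncorrected change in 1705 to 2068 and the call on both days in 33 to 144. In the same way the difference from dexamethasone 1 µM passed in 10 to 15 genes, from dexamethasone 0.01 µM in 2 to 4 and from hydrocortisone 0.01 µM in 677 to 1238. The day 6 effect passed in 250 genes with ribosomal RNA removed and in 238 in DESeq2, the call on both days in 197 and 193, and the difference from dexamethasone 1 µM in 32 and 33. The vehicle change passed in 37 genes without the libraries above 75% ribosomal RNA. The cause of these moves was not tested. Of 83 genes named by rule with a called washout change, 47 passed in every alternative and 82 kept their direction. ABCG2 was the exception: the ABCG2 washout change was -0.046 without the libraries above 75% ribosomal RNA, -0.29 against the own vehicle and between -0.077 (without the day 6 vehicle of high-dose dexamethasone) and 2.71 with 1 library left out, and the ABCG2 day 6 effect was -0.31 against the own vehicle. With flask lineage as a block the LINC02742 washout change was 1.60 (edgeR adjusted p = 0.218), the PDGFRB washout change -0.32 and the DCDC2 washout change 1.85 (edgeR adjusted p = 0.221), and none passed. In the tests against other treatments with that block, the FBN1 washout change against dexamethasone 1 uM was -0.95 (edgeR adjusted p = 0.297). The DCDC2 washout change against hydrocortisone 0.01 uM was 2.51 (edgeR adjusted p = 0.114) with it. Untreated medium was compared on day 3 only. A 95% interval of the washout change, without adjustment for the number of genes, had a median half-width of 0.298 on the log2 scale. Smaller changes of single genes were mostly not detectable with these libraries, and the adjusted threshold asks for larger ones still.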

Other observations

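Among the 10 largest negative washout changes were also CERNA2, a long noncoding RNA, and IP6K3, a kinase that makes inositol pyrophosphates (-1.79). CERNA2 had 5.51, 4.92 and 4.41 CPM in hydrocortisone libraries of day 6, against 3.67, 4.75, 3.56 and 3.08 CPM in vehicle libraries of day 6. It had 22.2, 23.3 and 21.8 CPM in hydrocortisone libraries of day 3, against a median of 4.34 CPM and a lowest value of 2.99 CPM in vehicle libraries of day 3. The day 6 groups overlapped for CERNA2 and the day 3 groups did not. SLC1A3, a glutamate transporter of astrocytes, had 2.23, 2.61 and 2.95 CPM in hydrocortisone libraries of day 6, against 1.68, 1.67, 1.78 and 1.90 CPM in vehicle libraries of day 6, and a washout change of -1.09. Among the 10 largest positive changes was DCDC2, a microtubule-binding protein of cilia (2.00), whose vehicle libraries rose by 1.69 between the days. The DCDC2 washout change did not pass without any one of 7 libraries, among them hydrocortisone day 3 replicate 4 (1.63) and hydrocortisone day 6 replicate 2 (1.69).

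Of 19 clock genes, 1 (5.26%, against 6.97% over all genes) had a washout change called lower (PER1), and NR1D2, a nuclear receptor that represses the clock, was called lower on day 6 (-0.54). Of 28 immediate early genes 2 (7.14%) were called higher (FOSL1 and MYC). In the list for the unfolded protein response, with 24 members tested, 1 (4.17%) was called higher (CEBPB), 8 were called lower on day 3, and 2 were called lower on day 6, the cystine transporter SLC7A11 and PSAT1, an enzyme of serine synthesis (-0.56). The PSAT1 day 6 effect was -0.49 without hydrocortisone day 6 replicate 4 and did not pass (edgeR adjusted p = 0.0602). For the 13 genes encoded in mitochondrial DNA the median washout change was 0.50, above 0 in 12 of them, while their median change in the vehicle libraries was -0.70. None of the 13 was called in the washout change, in the effect of either day or in the change of the vehicles. All genes whose symbol starts with MT-, which may be more than these 13, had a share of the counts without nuclear ribosomal RNA. On day 6 this share was 12.2% to 13.2% in hydrocortisone libraries and 9.63% to 13.7% in vehicle libraries. On day 3 it was 13.4% to 15.6% in hydrocortisone libraries and at most 16.5% in vehicle libraries.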
